A study of Drosophila melanogaster with 5 samples.

Results

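The H3K18ac peaks described here are those of the genes that carried 5 or more peaks in the authors' list of regions that differed between control and etomoxir-treated Drosophila wing discs. The list assigns each peak to 1 gene, and 41 of its 1785 genes had at least 5 peaks, which gave 239 of the 2626 listed peaks. The p-value and FDR columns of the list imply 5514 tested peaks. Of these, 47.6% were listed, 39.8% as lower and 7.83% as higher after etomoxir. The study reports a larger number of H3K18ac peaks, so these shares hold for the tested peaks only. Of the 239 peaks, 214 (89.5%) were lower and 25 higher, and 82.9% of the other listed peaks were lower. Because a peak had to pass the authors' test to be counted, the members were selected on the same measured difference that is described below, and their number and direction are given as a description without a test.

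H3K18ac was profiled by CUT&RUN, in which an antibody directs a nuclease to cut out the chromatin that carries the mark, in 5 libraries of wing imaginal discs of male and female [w1118] larvae in the third instar. The control group held 3 libraries, 1 from discs taken without culture and 2 from discs kept for 2 h as explants, and the etomoxir group held 2 libraries from explants kept for 2 h with 500 µM of the drug. The table gives 1 mean per group and peak, so no spread between libraries can be shown and the part of the uncultured control library in the control mean was not tested. A level is the log2 of the mean normalized read count of a peak, a difference is the etomoxir level minus the control level, and a difference of -1.0 leaves 50.0% of the control level.

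Acetylation of lysine 18 of histone H3 is a mark of active promoters and enhancers and is laid down by the CBP/p300 family of acetyltransferases, which take the acetyl group from acetyl-CoA. Etomoxir blocks carnitine palmitoyltransferase 1, the enzyme that commits long-chain fatty acids to import into mitochondria and to β-oxidation, a source of acetyl-CoA. In the wing disc, genes that pattern the tissue are often surrounded by long introns and intergenic DNA with many separate enhancers, each of which can carry its own peak of the mark.

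The sequences below are the central 300 bases of the peak with the largest and of the peak with the smallest decrease of 4 genes, shown because the results turn on how far peaks of 1 gene differ. For CG43245 they lie at chr3L:10739565-10739864, where the difference was -2.56, and at chr3L:10742668-10742967, where it was -1.02. For Tet they lie in 1 intron, at chr3L:2868867-2869166 with a difference of -2.22 and at chr3L:2865581-2865880 with -1.0. For tara the windows are an intronic one at chr3R:16235384-16235683, which had -3.15, and one upstream of the gene at chr3R:16224554-16224853, which had -1.10. Both dally windows lie upstream of the gene, at chr3L:8822709-8823008 with -2.71 and at chr3L:8819451-8819750 with -1.40. All are the plus strand of dm6 as given by RefSeq, and capitals mark GAGAG, the element of the GAGA factor, ACCGGTT, the element of Grainyhead, or GGAATG, an element of Scalloped, on either strand and including overlapping copies.
CG43245-largest: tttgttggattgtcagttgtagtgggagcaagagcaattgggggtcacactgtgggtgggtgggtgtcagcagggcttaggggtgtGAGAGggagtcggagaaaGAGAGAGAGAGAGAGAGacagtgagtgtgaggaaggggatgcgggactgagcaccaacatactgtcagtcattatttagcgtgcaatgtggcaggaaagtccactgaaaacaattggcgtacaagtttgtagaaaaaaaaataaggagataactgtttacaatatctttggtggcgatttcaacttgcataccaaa
CG43245-smallest: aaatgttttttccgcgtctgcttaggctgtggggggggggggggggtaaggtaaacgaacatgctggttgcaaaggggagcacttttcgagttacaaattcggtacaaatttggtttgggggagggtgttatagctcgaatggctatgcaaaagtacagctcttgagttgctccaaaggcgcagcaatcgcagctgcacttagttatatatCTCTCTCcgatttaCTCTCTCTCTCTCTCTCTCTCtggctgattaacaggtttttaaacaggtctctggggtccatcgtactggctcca
Tet-largest: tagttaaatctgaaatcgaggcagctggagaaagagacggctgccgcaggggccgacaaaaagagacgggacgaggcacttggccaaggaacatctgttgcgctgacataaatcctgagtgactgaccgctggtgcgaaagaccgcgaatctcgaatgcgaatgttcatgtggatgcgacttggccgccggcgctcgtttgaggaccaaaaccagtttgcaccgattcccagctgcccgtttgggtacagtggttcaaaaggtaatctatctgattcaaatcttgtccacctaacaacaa
Tet-smallest: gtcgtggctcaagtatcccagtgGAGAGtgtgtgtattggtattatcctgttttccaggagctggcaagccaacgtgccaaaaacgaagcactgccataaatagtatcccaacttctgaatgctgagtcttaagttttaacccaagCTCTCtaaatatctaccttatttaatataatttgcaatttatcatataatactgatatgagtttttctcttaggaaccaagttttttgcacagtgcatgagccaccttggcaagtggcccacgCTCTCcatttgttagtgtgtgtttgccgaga
tara-largest: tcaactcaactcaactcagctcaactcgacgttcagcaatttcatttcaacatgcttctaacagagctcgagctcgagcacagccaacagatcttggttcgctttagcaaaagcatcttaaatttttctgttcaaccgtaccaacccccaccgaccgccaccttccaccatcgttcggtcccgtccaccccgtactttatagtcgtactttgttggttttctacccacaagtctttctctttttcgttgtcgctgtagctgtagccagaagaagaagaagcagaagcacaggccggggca
tara-smallest: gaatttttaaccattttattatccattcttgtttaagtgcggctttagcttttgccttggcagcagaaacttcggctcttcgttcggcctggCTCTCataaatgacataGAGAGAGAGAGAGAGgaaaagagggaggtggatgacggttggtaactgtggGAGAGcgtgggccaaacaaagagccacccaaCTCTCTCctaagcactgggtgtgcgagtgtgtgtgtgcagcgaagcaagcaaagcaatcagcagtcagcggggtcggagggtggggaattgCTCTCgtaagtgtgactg
dally-largest: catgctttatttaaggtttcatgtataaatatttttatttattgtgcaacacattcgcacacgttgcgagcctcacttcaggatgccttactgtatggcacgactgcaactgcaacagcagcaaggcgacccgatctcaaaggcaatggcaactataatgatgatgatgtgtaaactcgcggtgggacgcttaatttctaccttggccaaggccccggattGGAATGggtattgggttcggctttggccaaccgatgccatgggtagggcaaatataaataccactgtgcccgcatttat
dally-smallest: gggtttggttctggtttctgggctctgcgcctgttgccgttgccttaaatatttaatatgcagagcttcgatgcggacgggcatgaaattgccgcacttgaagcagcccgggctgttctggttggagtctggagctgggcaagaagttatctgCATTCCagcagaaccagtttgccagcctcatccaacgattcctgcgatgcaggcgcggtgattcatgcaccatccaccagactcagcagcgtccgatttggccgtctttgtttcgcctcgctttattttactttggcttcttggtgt

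GAGAG was present in 4 of these 8 windows, namely both windows of CG43245 and the windows with the smallest decrease of Tet and tara. Other genes differed in this. The element was only in the window with the largest decrease at dpp, ec and hth, and only in that with the smallest at Antp, CG4116 and heph. Whether it goes with the size of the decrease was not tested. GGAATG was present in both dally windows, and the windows with the largest decrease of Tet and tara held none of the 3 elements. Over all 239 peaks, 46.9% of the central windows held GAGAG, against 41.1% of the windows of the other listed peaks. GGAATG was found in 14.2% against 15.2%, and ACCGGTT in 0.837% against 1.97%. These shares are matches of letters and were not tested. The median GC content of whole peaks was 45.7% for the members and 44.6% for the other listed peaks.

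Most of the 41 genes were represented by 5 or 6 peaks. There were 21 genes with 5, 12 with 6, 4 with 7, 3 with 8 and 1 with 10. Just below the threshold, 39 genes had 4 peaks, with 49.4% of their 156 peaks in promoters and a median difference of -1.26. The 21 genes with 5 had 27.6% of their 105 peaks in promoters and a median difference of -1.41. The direction differed too, with 128 lower peaks at the genes with 4 and 104 at those with 5. Over lower peaks alone the medians were -1.37 and -1.41. By biotype, 35 of the genes are protein-coding, 5 are non-coding RNA genes, and 1, listed only as FBgn0259247, was not found in the annotation used here. All peaks were lower after etomoxir at 36 genes, all were higher at 4 genes, namely CG41099, CG41128, FBgn0259247 and IntS3, and Acsl had peaks in both directions.

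The peaks of these genes lay mainly away from transcription starts. Of the 239 peaks, 97 (40.6%) were annotated to introns, 76 (31.8%) to promoters, meaning within 3 kb of a start, 58 (24.3%) to distal intergenic DNA and 8 (3.35%) to exons, UTRs or the region downstream of a gene. Among the 2387 other listed peaks, promoters made up 69.0%, introns 16.9% and distal intergenic DNA 10.3%. The promoter share was 78.5% for genes with 1 listed peak and 58.0% for genes with 2 to 4, and so was lower in each class with more peaks. A peak lay over a transcription start in 21 cases (8.79%), at 16 of the genes, against 30.1% of the other listed peaks, and the median distance to the start was 6701 bases against 845. The genes were also long, with a median of 27914 bases against 3018 for genes with 1 listed peak and 10199 for those with 2 to 4. The classes are defined by the number of peaks per gene. How far the shares, distances and lengths follow from that rule was not tested.

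**Figure D1:**
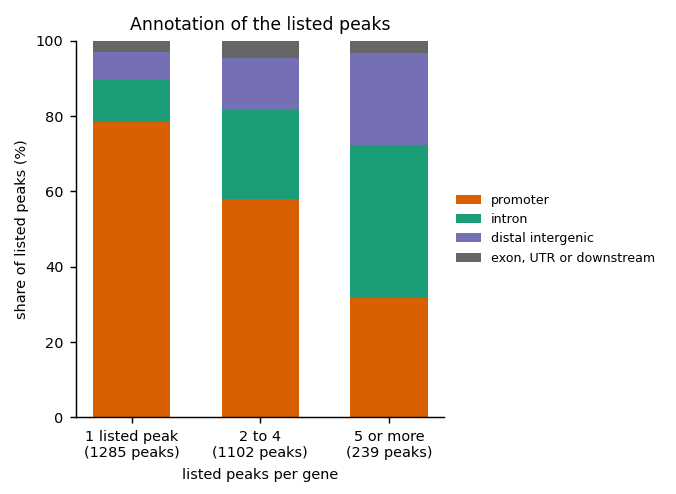
Share of listed peaks (%) in each annotation class, as stacked bars, for genes with 1, with 2 to 4 and with 5 or more listed peaks. Promoters make up 78.5%, 58.0% and 31.8% of the peaks, and introns 11.1%, 23.7% and 40.6%.

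The mix differed from gene to gene. Exn had promoter peaks only, while bi, sbb, CG4116 and lncRNA:CR44988 had intron peaks only. The 7 genes without a promoter peak were these last 4 together with hth, lncRNA:CR43681 and mir-4944. At 12 genes, among them en, NijA, Pex7, dally and CG43245, no peak was intronic and at least 1 was distal intergenic.

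The stretch from the first to the last listed peak had a median length of 27.8 kb. The shortest, 6.62 kb, was at dally and the longest, 82.1 kb, at pyd, and at 19 genes the stretch was longer than the gene itself. Peaks covered a median of 19.6% of the stretch, from 6.61% at mir-4944 to 58.9% at heph, the polypyrimidine tract binding protein. Of the 198 gaps between neighbouring peaks of 1 gene, 60 were under 1 kb. Peaks were narrower than the rest of the list, with a median of 759 against 971 bases.

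Over all 239 peaks the median difference was -1.37, against -1.05 for the other listed peaks, with a median level of 6.46 in control and 5.03 after etomoxir. For the 214 lower peaks alone the median was -1.42, with quartiles of -1.85 and -1.18, and that of the other 1980 lower listed peaks was -1.16. A decrease by at least 1 was listed at 185 of the peaks (77.4%), against 55.6% of the other listed peaks. When the read counts of all peaks of a gene were added up, the share of the control signal left after etomoxir ranged from 23.4% at Su(z)2 to 54.1% at Exn among the 36 genes with lower peaks only, with a median of 36.6%.

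**Figure D2:**
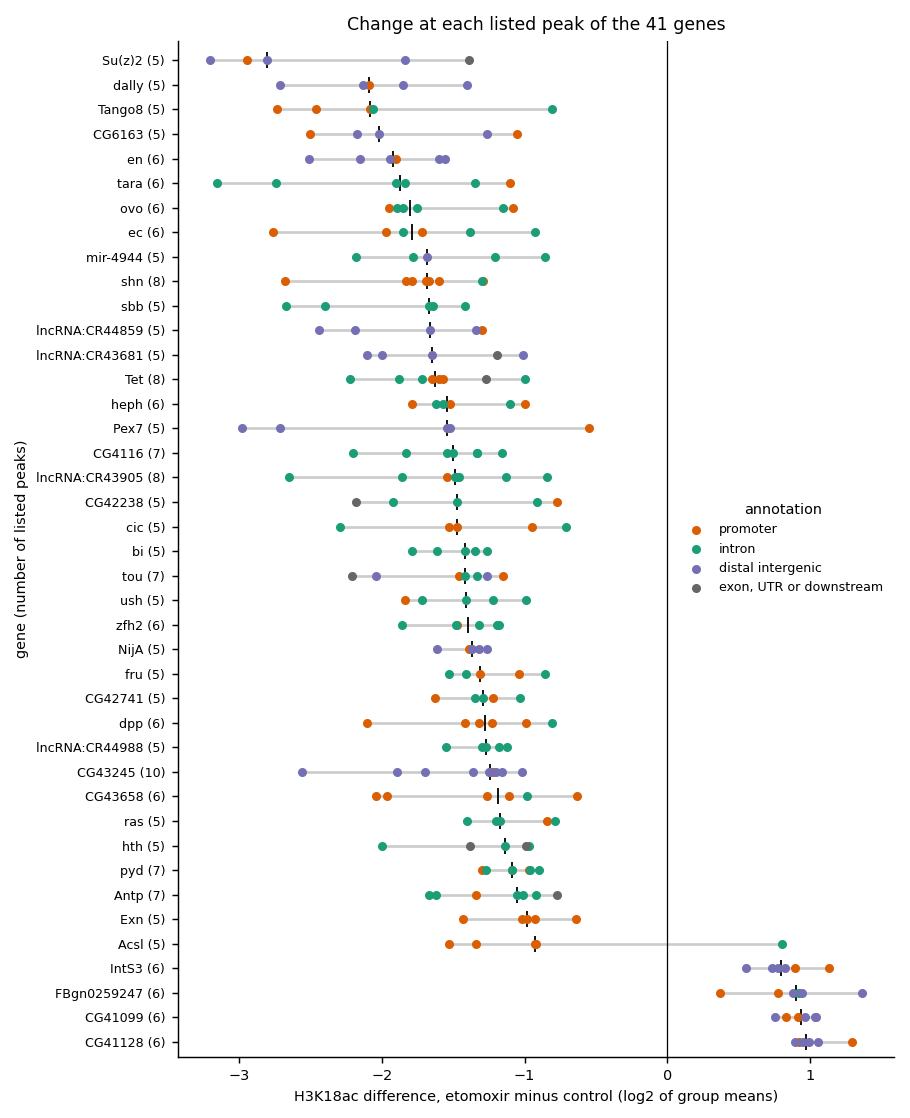
Difference between etomoxir and control (log2 of group means) at each of the 239 peaks, 1 row per gene with its number of peaks in parentheses, ordered by the gene's median (black tick); grey lines span the range and colours give the annotation. The medians run from -2.80 at Su(z)2 to 0.97 at CG41128, only Acsl crosses 0, and the longest line, 2.43, is that of Pex7.

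Within a gene, the measured decrease was far from equal at all peaks. With group means only, how much of this unevenness comes from spread between libraries was not tested. The range of the difference within a gene had a median of 1.06 and was at least 1 at 23 genes, between 0.5 and 1 at 13 and under 0.5 at 5, which are CG41099, NijA, CG41128, pyd and lncRNA:CR44988. The within-gene SD had a median of 0.41, from 0.11 at CG41099 to 0.99 at Pex7. Pooled over genes, the within-gene SD of the lower peaks was 0.47, against 0.38 in the genes with 2 to 4 listed peaks. Differences between genes made up 73.3% of the variance of the difference over all 239 peaks, but 19.4% over the 214 lower peaks, where the remainder lay between peaks of the same gene.

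Over the lower peaks of the 41 genes, the median difference was -1.68 in distal intergenic DNA, -1.42 in promoters and -1.4 in introns. Within genes no class led throughout. Of 28 genes with lower peaks both in promoters and elsewhere, the median decrease was larger in promoters at 14 and larger elsewhere at 14. The peak nearest to a start had the largest decrease of its gene at 7 of the 36 lower genes and the smallest at 9. At Exn and dpp several peaks lay over a start, and the first along the chromosome was taken. Exn is 1 of the 9 on that basis. The peak with the largest decrease was intronic at 14 genes, in a promoter at 12 and distal intergenic at 8, and the one with the smallest was intronic at 18, in a promoter at 11 and distal intergenic at 5. The distance between neighbouring peaks was looked at over all 198 pairs of the 41 genes, those with higher peaks included. Pairs less than 1 kb apart differed by a median of 0.32 (upper quartile 0.58) and those 1 to 5 kb apart by 0.41 (0.79). Pairs at least 5 kb apart differed by 0.32 (0.84). As a description over the 214 lower peaks, each taken relative to its gene's mean and sharing its libraries with all others, the control and etomoxir levels had a Pearson correlation of 0.75, and the difference and the control level one of -0.02.

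Among the lists of genes by role, that of transcription factors, which is also the longest, held the most members. All these lists were written with earlier results of these data known. Their shares beside that of all protein-coding genes are therefore a description and no independent comparison. Of 126 transcription factor genes on a list written for wing disc development, 123 were in the annotation, 64 had a listed peak and 9 (7.32%) had 5 or more, and their 52 peaks were all lower, with differences from -2.68 to -0.71. Over all 13986 protein-coding genes, 1375 (9.83%) had a listed peak and 35 (0.250%) had 5 or more. The members of the list were shn, Antp, en, zfh2, bi, cic, fru, hth and ush.

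The gene shn encodes a zinc-finger protein that acts in the response to the BMP ligand Dpp. Its 8 peaks spanned 28.0 kb inside the gene, chr2R:11175417-11203466, and 7 of them were promoter peaks, since the gene has several starts. In chromosomal order the control levels were 6.49, 7.07, 7.01, 7.13, 6.33, 6.56, 6.62 and 7.06, and the etomoxir levels were 4.80, 5.47, 4.33, 5.84, 4.66, 5.26, 4.79 and 5.27. The differences were -1.69, -1.60, -2.68, -1.29, -1.67, -1.30, -1.83 and -1.79. The control levels were close to each other, within 0.80, and the peak with the largest decrease, 112 bases from a start, lay beside the one with the smallest, 428 bases from it on the other side.

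Antp, the Hox gene of the thorax, had 7 peaks over 65.4 kb inside its body, chr3R:6922969-6988354. They comprised 5 intron peaks, 1 promoter peak and 1 in a 3' UTR. Control levels were 6.18, 6.46, 7.23, 5.54, 6.39, 6.10 and 5.47 and etomoxir levels 4.51, 5.12, 6.22, 3.92, 5.62, 5.18 and 4.42. The differences were -1.67, -1.34, -1.01, -1.62, -0.77, -0.92 and -1.05. Their median of -1.05 was among the smaller median decreases of the genes with lower peaks only, and 45.9% of the summed signal was left. The UTR peak had the smallest decrease of the gene.

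The homeodomain gene en, the selector of the posterior compartment, had 6 peaks with differences from -2.51 to -1.56, of which 5 were distal intergenic, on both sides of the gene. The zinc-finger homeodomain gene zfh2, the only member on chromosome 4, had 6 from -1.86 to -1.18. The T-box gene bi (also called omb) had 5 from -1.79 to -1.26, all in introns. For the HMG-box repressor cic, which acts downstream of EGF receptor signalling, 5 peaks ranged from -2.29 to -0.71, a wider range than at bi. The BTB zinc-finger gene fru had 5 from -1.53 to -0.86. The homeodomain gene hth had 5 from -2.00 to -0.97. The FOG-type GATA cofactor ush had 5 from -1.84 to -0.99. Every one of these genes thus lost signal at all of its listed peaks, and the peaks with the smallest loss were between -1.56 and -0.71. Of all listed peaks, 83.5% were lower, and peaks of these genes outside the list were not analysed here.

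Further regulators of transcription outside that list were ovo, tara and sbb. The zinc-finger gene ovo, whose larval form is known as shavenbaby, had 6 peaks from -1.95 to -1.08, all with their centres in the body of the overlapping lncRNA:CR44833, and 4 of these outside ovo itself. The corepressor gene sbb had 5 from -2.67 to -1.42, all in 1 intron. A further 5 peaks in the same gene body, from -2.73 to -0.81, were assigned to Tango8, which is nested in sbb, so that 10 peaks over 37.3 kb share this locus.

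At tara, a SERTAD-domain gene of the trithorax group, 6 peaks covered 29.4 kb, chr3R:16224392-16253821, with 1 promoter peak and 5 in an intron. The control levels were 6.09, 7.02, 7.15, 7.38, 6.79 and 7.67 and the etomoxir levels 4.99, 5.12, 4.0, 4.64, 5.44 and 5.83. The differences, -1.10, -1.90, -3.15, -2.74, -1.35 and -1.84, spanned 2.05, among the 3 widest ranges of all 41 genes. The intron peaks with -3.15 and -2.74 lie next to each other and kept 11.27% and 14.97% of their control level, while the promoter peak kept 46.7%. The sequences of the peaks with the largest and smallest decrease are printed above.

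Chromatin genes were represented by Tet, tou and Su(z)2, 3 (9.38%) of the 32 annotated genes of a chromatin list, of which 11 had any listed peak. Their 20 peaks were all lower, from -3.20 to -1.0. Tet is the fly relative of the TET dioxygenases. Its 8 peaks spanned 50.2 kb inside the gene, chr3L:2821112-2871357, with 3 in promoters, 4 in introns and 1 in an exon. Control levels were 5.79, 5.85, 6.58, 7.07, 6.76, 6.57, 6.23 and 5.45, and etomoxir levels were 4.14, 4.25, 5.01, 5.19, 5.04, 5.57, 4.01 and 4.18. The first 5 differences, -1.65, -1.60, -1.57, -1.88 and -1.72, were alike, whereas the last 3, -1.0, -2.22 and -1.27, held both the largest and the smallest decrease of the gene, at neighbouring peaks in 1 intron.

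The gene tou encodes a chromatin remodelling protein related to mammalian BAZ2. Its 7 peaks spanned 50.5 kb, chr2R:11558193-11608732, and were of 4 annotation classes, with 3 of them outside the gene. The control levels were 5.95, 6.93, 5.65, 5.78, 6.23, 6.22 and 7.46, and the etomoxir levels 4.69, 4.89, 3.44, 4.63, 4.81, 4.89 and 6.0. The differences were -1.26, -2.04, -2.21, -1.15, -1.42, -1.33 and -1.46. The peaks with -2.04 and -2.21 both lay outside the gene, and the 4 inside it ran from -1.46 to -1.15. The outer tou peaks lie toward en, and the 13 peaks of both genes form a stretch of 92.9 kb.

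Su(z)2, a paralogue of the Polycomb group gene Psc, had 5 peaks with the lowest median of all 41 genes. The control levels were 6.47, 7.03, 5.66, 6.86 and 6.63 and the etomoxir levels 3.53, 5.64, 2.46, 5.02 and 3.83. The differences were -2.94, -1.39, -3.20, -1.84 and -2.80. The value of 2.46, at a distal intergenic peak, was the only etomoxir level under 3 among the 239 peaks, and the exon peak with -1.39 was the least changed. Su(z)2 was chosen for this account of each peak after its values were seen.

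Of 84 annotated genes of a signalling list, 38 had a listed peak, and dpp and dally had 5 or more. The BMP ligand gene dpp had 6 peaks from -2.10 to -0.81, 5 of them at its promoters and 4 over a start. The glypican gene dally, whose product binds Dpp and Wingless at the cell surface, had 5 from -2.71 to -1.40, all upstream of its start, which left 24.7% of the summed signal. All 11 peaks of the pair were lower, and the dally windows printed above are the ends of its range.

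The ZO-1 orthologue pyd, a scaffold of adherens junctions, was the only member among 56 annotated junction and cytoskeleton genes, of which 23 had a listed peak. Its 7 peaks spread over 82.1 kb of the gene, chr3R:8846379-8928468, with 3 at promoters and 4 in introns. Control levels were 6.54, 7.26, 6.65, 6.36, 7.09, 7.74 and 6.07, and etomoxir levels 5.57, 6.17, 5.35, 5.27, 6.13, 6.47 and 5.17. The differences of -0.97, -1.09, -1.30, -1.09, -0.96, -1.27 and -0.90 fell within 0.40 of each other although the stretch was the longest and the control levels differed by up to 1.67. NijA, a ninjurin membrane protein gene, was as even, over 19.5 kb at chr3L:10696877-10716421. Its 5 control levels were 7.24, 6.27, 5.66, 6.97 and 6.42 and its etomoxir levels 5.85, 5.01, 4.05, 5.60 and 5.10, with differences of -1.39, -1.26, -1.61, -1.37 and -1.32. The first of these peaks was in the promoter and the other 4 were distal intergenic, with little difference between the classes.

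**Figure D3:**
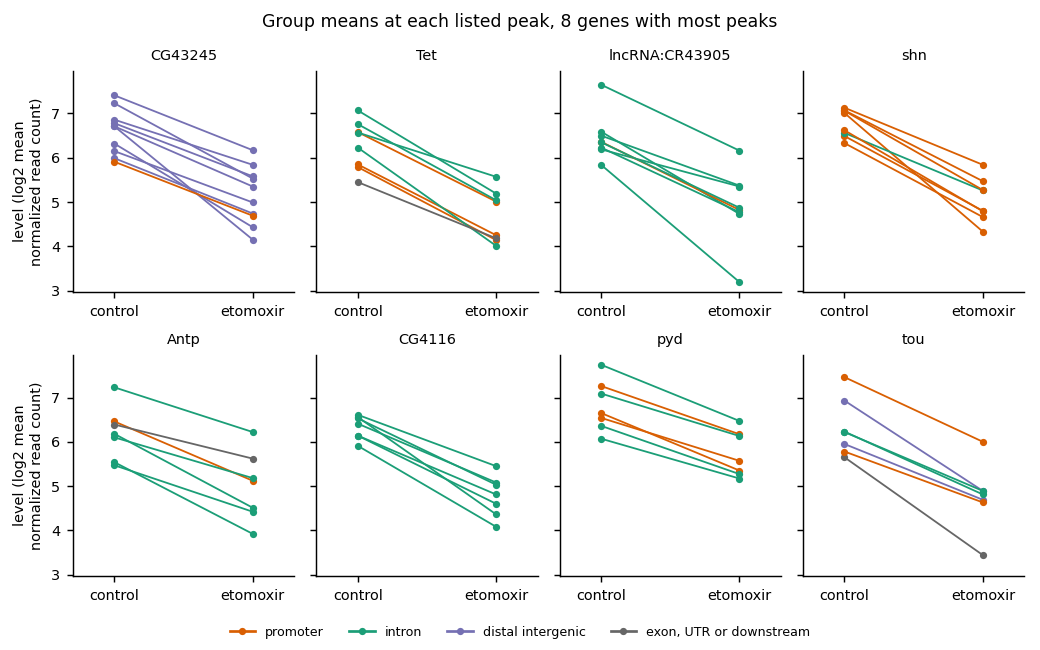
Level (log2 mean normalized read count) in the control and etomoxir groups at each listed peak of the 8 genes with most peaks; each line is 1 peak, coloured by annotation, and points are group means without error bars because the table holds none. The lines of pyd run nearly parallel, with a range of 0.40, whereas lncRNA:CR43905 and shn each have 1 peak with a far steeper line, at -2.65 and -2.68.

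With tara, the genes Acsl and Pex7 had the widest ranges. Acsl encodes a long-chain acyl-CoA synthetase, which activates fatty acids before they are imported into mitochondria. Its 5 peaks, chr2R:8658762-8671817, had control levels of 6.07, 6.81, 6.32, 5.98 and 6.15 and etomoxir levels of 6.87, 5.88, 5.40, 4.45 and 4.81. The 4 promoter peaks were lower, with -0.93, -0.92, -1.53 and -1.34. The first peak was higher, with 0.80, and lay in the first intron of ptc, the Hedgehog receptor gene, 6.11 kb upstream of the Acsl start it was assigned to. The wide range of Acsl thus rests on this peak, since the others ran from -1.53 to -0.92. It was the only peak of the 41 genes that differed in direction from the others of its gene.

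Pex7, the import receptor for a class of peroxisomal proteins, had 5 peaks over 9.74 kb at chr3L:8649908-8659642. The promoter peak had a level of 7.25 in control and 6.70 after etomoxir, a difference of -0.55, which was the smallest decrease among all lower peaks of the 41 genes. The 4 distal intergenic peaks had control levels of 6.32, 6.22, 6.09 and 6.33 and etomoxir levels of 3.61, 4.68, 3.11 and 4.81. Their differences were -2.71, -1.54, -2.98 and -1.52, so that the promoter peak kept 68.3% of its control level and the peak with the largest decrease 12.7%. Along the chromosome the intergenic peaks alternated between a larger and a smaller decrease. The larger ones were at the lowest etomoxir levels of the gene, 3.61 and 3.11, and whether this order exceeds the spread between libraries was not tested.

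**Figure D4:**
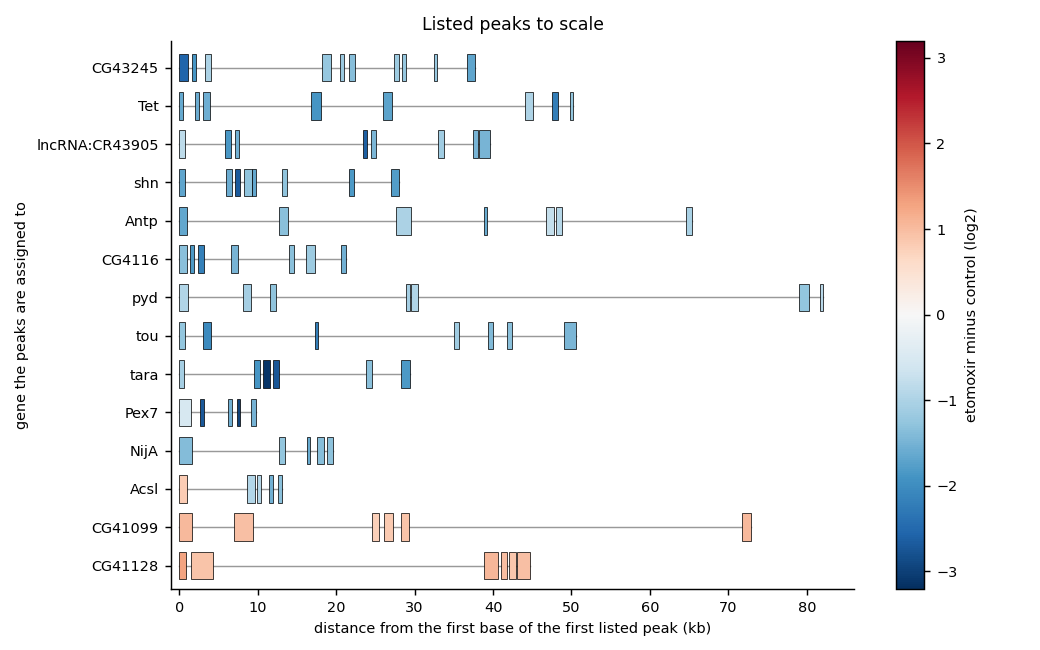
Listed peaks of 14 genes drawn to scale as boxes along the distance (kb) from the first base of the first peak, coloured by the difference (log2). Blue boxes are lower and red boxes higher after etomoxir; among the genes with blue boxes only, those of Pex7 and tara differ most in shade, those of pyd, spread over 82.1 kb, are alike, and Acsl has 1 red box.

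Other protein-coding members had different known roles. IMP dehydrogenase, encoded by ras, had 5 peaks from -1.40 to -0.79, all of them inside the neighbouring gene stx. The gene ec, related to ubiquitin-specific proteases, had 6 from -2.76 to -0.93. The RNA-binding protein gene heph had 6 from -1.79 to -1.0 and the shortest stretch after dally, 9.16 kb. Exn had 5 from -1.43 to -0.64, the smallest median decrease of the lower genes. Genes known here by number were CG43658 with 6 peaks from -2.04 to -0.63, CG42238 with 5 from -2.18 to -0.77, CG6163 with 5 from -2.50 to -1.05 and CG42741 with 5 from -1.63 to -1.03. All 5 CG42741 peaks lay within the annotated body of twi, a marker of muscle precursors, 3 of them in 1 intron of a twi transcript.

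CG43245 had the most peaks, 10 over 37.7 kb at chr3L:10739160-10776853, while the gene itself is 1475 bases long. Its 9 distal intergenic peaks and 1 promoter peak had control levels of 6.71, 6.32, 6.86, 7.41, 6.78, 6.71, 6.15, 5.99, 5.91 and 7.23. The etomoxir levels were 4.15, 4.43, 5.84, 6.17, 5.58, 5.35, 4.99, 4.74, 4.69 and 5.53, and the differences -2.56, -1.89, -1.02, -1.24, -1.20, -1.36, -1.16, -1.25, -1.22 and -1.70. The first, second and last peaks stood apart from the 7 between them, which ran from -1.36 to -1.02, and the promoter peak was 1 of these 7. The largest share of the gene's loss that fell to 1 peak was 16.2%, the lowest of the 36 lower genes. Together with the NijA peaks, the 15 peaks of both genes form a stretch of 80.0 kb.

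Peaks were also assigned to genes that do not hold them. Of the 233 peaks of the 40 genes found in the annotation, 120 (51.5%) had their centre within the body of the assigned gene, 40 (17.2%) within that of another gene only and 73 within none. The shares were close to those of the other listed peaks, 47.4% and 18.6%. Of 1712 other listed genes in the annotation, each with fewer peaks, 860 had no peak centre in their own body. This held for 14 of the 40 genes. CG4116 is such a case, since its 7 peaks all lay in 1 intron of kirre, an immunoglobulin-type adhesion protein gene, over 21.3 kb at chrX:3039215-3060504. Their control levels were 6.41, 5.91, 6.56, 6.53, 6.14, 6.61 and 6.14 and the etomoxir levels 5.08, 4.08, 4.36, 5.03, 4.81, 5.45 and 4.60. The differences were -1.33, -1.83, -2.20, -1.50, -1.33, -1.16 and -1.54, with the largest decreases at neighbouring peaks.

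Each of the 5 non-coding RNA genes likewise had no peak centre in its own body, and their 28 peaks were all lower. The 8 peaks of lncRNA:CR43905, chr2R:6523873-6563459, all lay in the body of the zinc-finger transcription factor gene jing. Control levels were 6.19, 6.59, 6.36, 5.84, 6.23, 6.50, 6.35 and 7.65, and etomoxir levels 5.35, 4.73, 4.82, 3.19, 4.77, 5.37, 4.87 and 6.16. The differences of -0.84, -1.86, -1.54, -2.65, -1.46, -1.13, -1.48 and -1.49 included both a small and a very large decrease, the latter at the peak with the lowest control level. The 5 peaks of lncRNA:CR44988, from -1.55 to -1.12, lay in ds, which encodes the cadherin that binds Fat. Of the 5 mir-4944 peaks, from -2.18 to -0.86, 4 lay in hth. The 5 peaks of lncRNA:CR43681, from -2.10 to -1.01, and the 5 of lncRNA:CR44859, from -2.44 to -1.30, lay in no gene body.

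The 4 genes with only higher peaks, with the 1 higher Acsl peak, gave 25 peaks. These had a median GC content of 35.2% and a median width of 1426 bases, against 46.3% and 738 bases for the lower peaks. The 407 other higher listed peaks were not compared in this way, so these values cannot be called particular to these genes. The median level of these 25 peaks was 7.04 in control and 7.95 after etomoxir. CG41099 and CG41128 are neighbours, and their 12 peaks form a stretch of 144 kb at chr3R:3746963-3891130. The 6 CG41099 peaks had control levels of 5.72, 5.63, 6.62, 7.04, 7.22 and 4.43, etomoxir levels of 6.75, 6.59, 7.37, 7.87, 8.13 and 5.47, and differences of 1.03, 0.96, 0.75, 0.83, 0.91 and 1.04, the smallest range of any gene, 0.29. The 6 CG41128 peaks had control levels of 6.66, 8.71, 8.10, 6.75, 7.54 and 6.82, etomoxir levels of 7.95, 9.63, 9.15, 7.74, 8.43 and 7.77, and differences of 1.29, 0.92, 1.05, 0.99, 0.89 and 0.95. Control levels at these genes varied by 2.79 and 2.05, so peaks of very different height rose by nearly the same ratio.

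At FBgn0259247 the 6 peaks, chr2R:5397633-5421358, had control levels of 7.58, 7.31, 5.35, 8.59, 8.64 and 6.81 and etomoxir levels of 8.52, 8.19, 6.71, 9.36, 9.01 and 7.73. The differences were 0.94, 0.88, 1.36, 0.77, 0.37 and 0.92, with the largest at the peak of the lowest control level and the smallest at that of the highest. The centres of the last 3 peaks lay within stw in the annotation used here, and the deposited annotation places the last of them in an intron of FBgn0259247 itself, so these may be 1 locus under different identifiers. IntS3, a subunit of the Integrator complex, had 6 peaks over 68.6 kb at chr2R:4219475-4288109, with control levels of 7.31, 7.53, 6.32, 6.38, 8.61 and 8.06 and etomoxir levels of 8.04, 8.42, 7.45, 7.15, 9.16 and 8.88. The differences were 0.73, 0.89, 1.13, 0.77, 0.55 and 0.82, and here too the highest peak had the smallest increase. The summed signal of the 4 genes after etomoxir was 167% to 199% of that in control.

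The labelled tissue was checked against marker genes. Of 9 wing disc markers, 7 (ap, ci, dpp, en, hh, sd and vg) had a listed peak, all lower, and of 2 tracheal markers 1, trh, had one, against 9.83% of all protein-coding genes. None of 4 muscle precursor, 2 haemocyte and 2 fat body markers was assigned a listed peak, which is near what that share gives for so few genes, and peaks assigned to CG42741 lay within twi. The list shows changed peaks only, so the levels of the mark at the other markers were not analysed here, and the part of other cell types in the differences was not tested. The members lay on all major arms, with 11 genes on 2R, 10 on 3R, 7 on 3L, 6 each on 2L and X, and 1 on chromosome 4. The 24 higher peaks of the 4 higher genes were on 2R and 3R. On these arms the 24 peaks lay at lower coordinates than every lower member peak, the first of which began at chr2R:6523873 and chr3R:6922969.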

How the data were processed

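H3K18ac CUT&RUN libraries of 3 control and 2 etomoxir-treated wing disc samples were summarised in 1 deposited table. Per the labels and the study's methods, the authors trimmed reads with Trim Galore 0.6.3, aligned them to dm6 with Bowtie2 2.4.2, called peaks with MACS2 2.1.1.20160309.6, compared the treatments with DiffBind 2.10.0 and annotated peaks with ChIPseeker 1.18.0. The deposited log2 values are the authors' mean normalized read counts of each peak, as 1 value for all libraries together and 1 for either group. What the libraries were scaled to is not given in the sources used here. The methods describe spike-in DNA, and the study's reporting summary gives 1 control library far more unique reads than the others, so group means may rest on libraries of unequal precision. The authors' fold, p-value and FDR columns were deposited too. The fold was not used, and the p-value and FDR served only to filter and to recover the number of peaks tested. The deposited distance to the transcription start, another authors' value, was used as given. Every listed peak had an FDR under 0.05, so unchanged peaks were not analysed here.

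Starts in the table count from 0, since the distances were reproduced at 100% of peaks on that basis and at 63.3% otherwise, and coordinates are given from 1. At 100% of peaks, averaging both group means with weights of 3 and 2 libraries gave the overall level to within 0.02. Gene identifiers were matched to Ensembl release 115 (BDGP 6.54), with 1752 of 1785 found and 40 of the 41 members. The difference, span, covered share, annotation mix and within-gene SD were computed with Python 3.11.15, numpy 2.4.6, pandas 2.3.3, scipy 1.17.1 and matplotlib 3.10.9. The recovery of the number of peaks tested, the share of variance between genes and the search for GAGAG were checked on simulated data. Variance was split between and within genes by a random-effects estimate. Sequences were read from the dm6 genome as RefSeq gives it. Every peak is given for the 6 genes with the most peaks and ties, for the 3 with the largest and the 3 with the smallest range, and for genes with higher peaks, and each other gene once. The members and the gene lists were chosen with earlier results of these data known. No test was run, because the values that would be tested chose the members. Alternatives were another FDR or peak number, merging of close peaks, lower peaks only, assignment by gene body, other measures of evenness and a narrower promoter.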

Additional observations from a re-analysis of the deposited data

How the results depend on the processing

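No paired analysis was possible because the table holds 1 mean per group and no value per library, and for the same reason leaving out a replicate was not run. The median difference of -1.37 stayed between -1.47 and -1.30 under all alternatives that keep the unit. The number of genes with 5 or more peaks was 19 at an FDR under 0.01 (109 peaks, 92 lower) and 16 after peaks within 1000 bases were merged (90 peaks, 75 lower, median span 42.5 kb). With at least 6 peaks there were 20 genes (134 peaks, 110 lower, median span 36.4 kb), and with at least 4 there were 80 (395 peaks, 342 lower, 38.7% in promoters). When a peak was given to the gene body that holds it, 59 genes had 5 or more (359 peaks, 341 lower), 31 of them among the 41, led by sbb with 12 and kirre with 11, and FBgn0259247, absent from the annotation, lost its 3 peaks within stw. With only lower peaks counted, the share of variance between genes was 19.0% in place of 73.3%, because the higher peaks belong to 4 genes and Acsl. The median within-gene range was 1.06 and the median absolute deviation 0.21, in place of an SD of 0.41, and promoters within 1 kb held 17.6% of peaks. Peaks close together are counted separately, so a broad domain that the peak caller split counts as several peaks.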

Other observations

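The peak with the largest log2 decrease was also the one with the largest loss of read counts at 9 of the 36 lower genes. The largest share of a gene's summed loss that fell to 1 peak had a median of 27.5%, from 16.2% at CG43245 to 38.7% at CG42238. After assignment by gene body, the genes with 5 or more listed peaks included several outside the 41, such as tkv, a Dpp receptor, with 5 peaks from -2.90 to -0.99, grn, a GATA factor, with 5 from -3.46 to -1.62, and InR, the insulin receptor, with 5 from -2.08 to -0.65. These 3 were chosen after their values were seen.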
